A study of Homo sapiens with 4 samples.

Results

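HuR, the product of ELAVL1, is an RNA-binding protein of the ELAV family that binds U-rich and AU-rich stretches in the untranslated regions and introns of transcripts, and is best known for stabilising short-lived mRNAs. It is mostly nuclear and shuttles to the cytoplasm, a movement known to respond to stresses such as DNA damage. RNA immunoprecipitation followed by sequencing (RIP-seq) recovers RNA held by a protein with an antibody, and a control immunoglobulin (IgG) gives the background of the procedure. A transcript covered by HuR-associated fragments gives a chain of neighbouring peaks over its body, so a peak that stands by itself is a single enriched stretch with no other call nearby.

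Isolated peaks were chosen by the deposited peak positions, as those whose nearest other peak of the same list lay at least 100 kb away on the same chromosome. The cells were the WS1 line of human skin fibroblasts, given 0 Gy or 5 Gy of X-rays, and the 4 libraries comprised 1 HuR and 1 IgG library at each dose. Each of the 2 deposited lists holds peaks of HuR over the IgG of the same dose, on the build hg19. Of 47930 peaks at 0 Gy, 1082 were isolated, as were 1164 of 36216 at 5 Gy. Together these are 2246 of 84146 peaks, and after peaks of both lists that overlap are joined they make up 1799 distinct loci. With 1 library per group there is no replicate check, and no p-value was computed. The intervals below count each peak as independent of the rest and describe counting error alone. Read depth is unknown from the lists. No hg19 annotation or sequence was at hand, so the peaks are named by position and carry no gene, strand or sequence, and the fibroblast label could not be checked against marker genes.

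Isolated peaks made up 2.26% of the 0 Gy list (95% interval 2.13 to 2.39) and 3.21% of the 5 Gy list (95% interval 3.04 to 3.40). The irradiated list held 75.6% as many peaks as the unirradiated one but 107.6% as many isolated peaks (95% interval 99.0 to 116.9). That interval includes equal numbers, but it describes counting error alone and does not compare the doses. It also takes the counts as independent, though 447 isolated peaks of each list overlapped an isolated peak of the other. When the 0 Gy list was reduced to its highest-scoring peaks, to the size of the 5 Gy list, it held 1161 isolated peaks against 1164. When a peak also had to lie 100 kb from every peak of the other list that it did not overlap, the order turned, with 835 at 0 Gy and 687 at 5 Gy. The isolated peaks covered 0.869 Mb at 0 Gy and 1.12 Mb at 5 Gy, or 2.29% and 3.23% of the sequence covered by each list.

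The distance to the nearest peak of the same list, on the autosomes and X, had a median of 194.0 kb at 0 Gy (quartiles 136.3 and 357.7) and 193.4 kb at 5 Gy (quartiles 135.4 and 344.0). With chromosome Y included, the gap was under 200 kb for 552 peaks at 0 Gy (51.0%) and 611 at 5 Gy (52.5%). Gaps of 1 Mb or more surrounded 40 peaks at 0 Gy and 65 at 5 Gy, again with Y included. The peaks named below lie on the autosomes and X. The remotest peak at 0 Gy was chr13:56639033-56639273, a call of 241 bp with a score of 135.97, whose nearest neighbour was 3365 kb away. At 5 Gy the same place carried a call of 264 bp with a score of 120.03 (chr13:56639034-56639297) and a gap of 3364 kb. The largest gap at 5 Gy on the autosomes and X, 3721 kb, belonged to chr13:69559125-69560361, which is 1237 bp long with a score of 3100. It overlapped a 0 Gy peak of 1231 bp with the same score, which had a neighbour 422.1 kb away. A peak on chromosome 11 (chr11:80364220-80364956 at 0 Gy, 737 bp) had a score of 3100 at both doses and gaps of 2036 kb at 0 Gy and 2169 kb at 5 Gy. These 3 loci were called at both doses.

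Some of the other remote peaks were found at 1 dose, and the rest overlapped a peak of the other dose. At 0 Gy, chr4:33012387-33012880 (494 bp, score 80.21) had no peak of either list within 3055 kb, and chr3:999661-999975 (315 bp, score 95.92) had none of the 5 Gy list within 2193 kb. At 5 Gy, chr1:104078823-104079168 (346 bp, score 83.99) lay 2161 kb from the nearest peak of either list. The 5 Gy peak chr2:80389640-80390355 (716 bp, score 148.8) had a gap of 3056 kb in its own list. It overlapped a 0 Gy peak with a score of 533.79, which had a second 0 Gy peak 0.345 kb away. The last of the 5 remotest at 0 Gy on the autosomes and X, chr11:50227253-50228499 (1247 bp, score 552.39), had a gap of 2035 kb. It overlapped a 5 Gy peak of 1253 bp with a score of 714.77, which was isolated as well, with a gap of 771.3 kb. Of these remotest peaks, the 3 without a counterpart scored under 100.

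A neighbouring peak was isolated too for 497 isolated peaks at 0 Gy (45.9%) and 553 at 5 Gy (47.5%). By the rule, a neighbour of an isolated peak already has a gap of at least 100 kb on the shared side. The same share over all peaks was not computed, so these shares do not measure clustering. The most in a row at 0 Gy were 6, on chr16:31770850-35037320, with scores from 105.37 to 3100 spread over 3.27 Mb, and 5 of these had a 5 Gy peak within 10 kb. At 5 Gy, chr1:101704353-107952269 and chrX:91237906-99194723 each held 7 in a row, over 6.25 and 7.96 Mb. On the X stretch the scores ran from 72.68 to 2920.79 and all 7 had a 0 Gy peak within 10 kb. Over these megabases every call of the list was single.

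The rule used position and the deposited calls, so scores and lengths of isolated peaks are given as a description of the same HuR over IgG contrast. The score is the authors' value, whose definition is not given in the sources; peaks called strong or weak below are those of high or low score. It has a minimum near 60, and many of the strongest peaks are tied at 3100, so their order is not resolved. The median score was 142.1 among isolated 0 Gy peaks (95% interval 130.7 to 152.8) and 136.6 in the whole 0 Gy list. At 5 Gy it was 143.2 (95% interval 133.1 to 154.9) and 143.4. The middle of the score range thus lay close to that of the lists as wholes. The upper end did not. Scores of at least 3000 were given to 110 isolated 0 Gy peaks (10.2%, 95% interval 8.50 to 12.1), against 5.37% of the peaks that were not isolated. At 5 Gy they were given to 107 isolated peaks (9.19%, 95% interval 7.66 to 11.0), against 5.77%.

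Read the other way, the share of a score class that was isolated was lowest at scores from 250 to under 500, at 1.70% (95% interval 1.40 to 2.07) at 0 Gy and 2.30% (1.91 to 2.78) at 5 Gy. It was highest at scores of at least 3000, at 4.19% (3.49 to 5.02) and 5.03% (4.18 to 6.04). In the lowest class, from 60 to under 70, it was 2.19% and 3.20%. Both lists thus had the lowest share in the same class of middle scores and the highest in the top class.

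**Figure D1:**
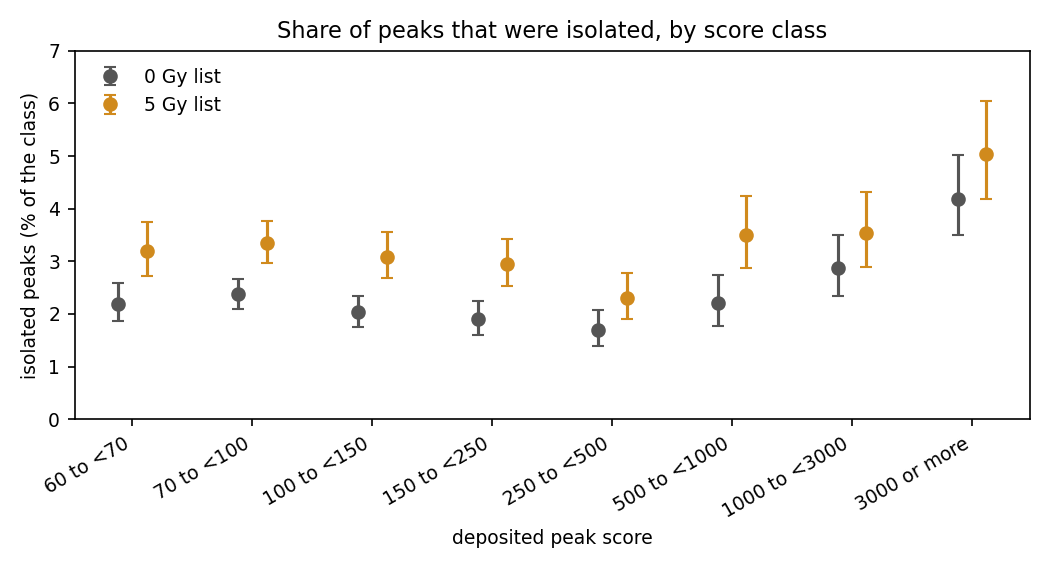
Share of the peaks of each score class that were isolated (percent, y axis) against the deposited peak score (x axis) for the 0 Gy list (grey) and the 5 Gy list (orange), with Wilson 95% intervals. Both lists have their lowest share at scores from 250 to under 500 (1.70% and 2.30%) and their highest at 3000 or more (4.19% and 5.03%).

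Among isolated peaks of the 0 Gy list the median length was 467 bp (95% interval 438 to 495), against 448 bp for all its peaks. In the 5 Gy list the isolated peaks had a median of 576 bp (95% interval 543 to 617), against 559 bp. With equal list sizes the isolated peaks had medians of 574 bp at 0 Gy and 576 bp at 5 Gy. At scores under 500, the median lengths of isolated and other peaks differed little within a class. From 250 to under 500, for example, they were 696 and 740 bp at 0 Gy and 923 and 904 bp at 5 Gy. From 500 to under 1000 they were 808 bp (95% interval 673 to 1236) and 961 bp (910 to 1014) at 0 Gy, and 850 bp (697 to 1190) and 1216 bp (1151 to 1283) at 5 Gy. At the top of the score range the isolated peaks were also the shorter. At scores of at least 3000 their median was 1216 bp at 0 Gy (95% interval 1019 to 1393) and that of the others 2232 bp (95% interval 2114 to 2324). At 5 Gy the medians were 1294 bp (1073 to 1706) and 2411 bp (2297 to 2527). Peaks under 1000 bp made up 42 of these 110 isolated peaks at 0 Gy (38.2%) and 35 of 107 at 5 Gy (32.7%), against 25.6% and 21.9% of the peaks that were not isolated. Since nearly all of these scores are tied at 3100, peaks of this class need not be equally strong.

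**Figure D2:**
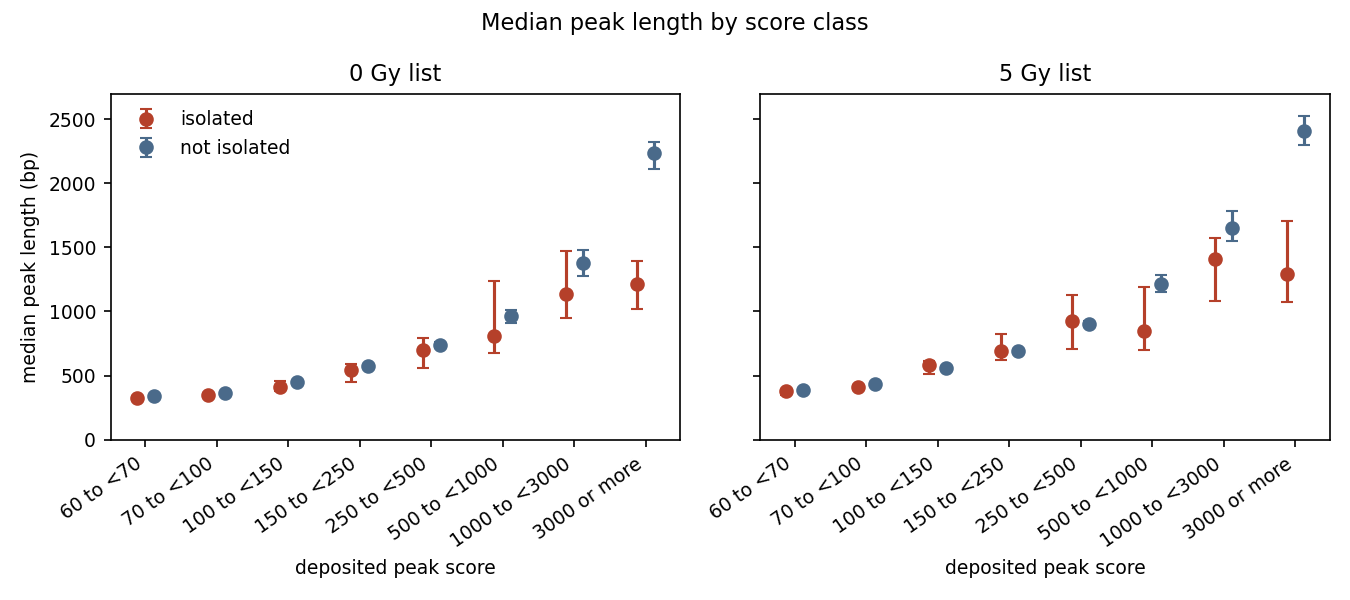
Median peak length in bp (y axis) by class of the deposited score (x axis) for isolated peaks (red) and all others (blue), with the 0 Gy list on the left and the 5 Gy list on the right. Bars are 95% intervals of the median from order statistics. The medians lie close together up to a score of 500. From 500 to under 1000 they are 808 against 961 bp at 0 Gy and 850 against 1216 bp at 5 Gy, and at 3000 or more 1216 against 2232 bp at 0 Gy and 1294 against 2411 bp at 5 Gy.

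The score does not rank the strongest isolated peaks, since 108 at 0 Gy and 104 at 5 Gy are tied at 3100, so ties were ordered by length. The top score at 0 Gy was 3155.18, at chr5:62072466-62073114 (649 bp). The 5 Gy peak there, chr5:62072408-62073131 (724 bp), scored 2898.45 and was isolated as well. The next, chr10:23727951-23731197 (3247 bp, score 3138.84), overlapped a 5 Gy peak of 3218 bp with a score of 3100. At 5 Gy the top score was 3180.34, at chr1:149261128-149263655 (2528 bp), where the 0 Gy peak of 2525 bp scored 2867.08. The second at 5 Gy, chr15:49657038-49658945 (1908 bp, score 3171.3), overlapped a 0 Gy peak of 1822 bp with a score of 1727.53. The 10 isolated peaks named by this rule in each list all overlapped a peak of the other dose, as did 99.8% of the 0 Gy peaks with a score of at least 3000 that were not isolated and 2021 of 2022 such peaks at 5 Gy.

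The longest isolated peak at 0 Gy was chr14:89622520-89629494 (6975 bp), and the 5 Gy call, chr14:89622536-89629339, was 6804 bp long. Both scored 3100. On chromosome 1, chr1:234739789-234745956 (6168 bp) at 0 Gy was matched by chr1:234739420-234746081 (6662 bp) at 5 Gy, again with 3100 at both doses. The 0 Gy peak chr8:116420664-116427266 (6603 bp, score 2691.43) was matched by a 5 Gy peak of 6651 bp with a score of 3082.73. In these 3 cases a long call stood alone at both doses with nearly the same ends.

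Other long calls had company in the other list. The 0 Gy peak chr17:64799965-64806862 (6898 bp, score 3100) overlapped a 5 Gy peak of 6683 bp with a score of 1360.39, which had a neighbour 68.37 kb away. At chr2:8992832-8999018 (6187 bp), the 0 Gy score was 1287.15 and the 5 Gy score 245.83, and 4 peaks of the 5 Gy list lay within 100 kb. The longest isolated peak at 5 Gy, chr14:77801368-77808301 (6934 bp), scored 1106.4. It overlapped a 0 Gy peak of 6976 bp with a score of 2184.04, and 8 peaks of the 0 Gy list lay within 100 kb of it. The 5 Gy peak chr20:42086175-42092869 (6695 bp, score 3100) overlapped a 0 Gy peak of 3759 bp with a further 0 Gy peak only 0.044 kb away.

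At the short end, isolated peaks under 250 bp numbered 139 at 0 Gy (12.8%) and 115 at 5 Gy (9.88%). The shares among peaks that were not isolated were 9.42% and 7.34%. The shortest at 0 Gy was chr8:41825998-41826128, with 131 bp and a score of 169.84. A 5 Gy peak lay 8.381 kb from it. On chromosome 20, chr20:22253618-22253750 (133 bp, score 204.81) stood 896.7 kb from the next 0 Gy peak and overlapped a 5 Gy peak of 167 bp with a score of 98.04. At 5 Gy the shortest was chr5:127302130-127302276 (147 bp, score 143.24), with no 0 Gy peak within 107.5 kb. Another, chr13:64108981-64109131 (151 bp, score 143.24), overlapped a 0 Gy peak of 144 bp with a score of 266.39, and both lay 1423 kb from the next peak of their list.

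A peak of the other dose lay within 10 kb of 651 of the 1082 isolated 0 Gy peaks (60.2%, 95% interval 57.2 to 63.0), where the share over all 0 Gy peaks was 89.1%. For isolated 5 Gy peaks it was 866 of 1164 (74.4%, 95% interval 71.8 to 76.8), where the share over all 5 Gy peaks was 94.6%. With the 0 Gy list reduced to the size of the 5 Gy list, the shares were 68.0% and 66.2%. Their 95% intervals, 65.3 to 70.7 and 63.4 to 68.8, overlapped. They describe counting error alone, and with 1 library per group they do not compare the doses. The reduction also removed weak 0 Gy peaks by construction. A window of 10 kb can also reach a neighbouring peak of the other list, which overlap does not. Counted by overlap of at least 1 bp, the shares lay closer together, with 53.5% of isolated 0 Gy peaks (95% interval 50.5 to 56.5) against 58.1% of all, and 65.6% of isolated 5 Gy peaks (95% interval 62.9 to 68.3) against 73.0% of all. Within 100 kb the shares were 66.2% against 98.2%, and 82.2% against 99.0%.

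The presence of a counterpart went with the score. Of isolated 0 Gy peaks with a score of at least 1000, 203 of 203 overlapped a 5 Gy peak (95% interval from 98.1%). At 5 Gy, 199 of 199 overlapped a 0 Gy peak (95% interval from 98.1%). Peaks of such scores that were not isolated overlapped the other dose in 99.5% and 99.9% of cases, so these counts are at the background of their score. From 250 to under 500, the shares within 10 kb were 83.7% at 0 Gy and 92.5% at 5 Gy, against 97.2% and 99.1% of peaks that were not isolated. By overlap they lay closer, with 83.7% of isolated (95% interval 75.1 to 89.7) and 85.7% of other peaks at 0 Gy. At 5 Gy they were 90.7% (83.6 to 94.8) and 94.8%. From 70 to under 100, 28.7% of isolated 0 Gy peaks (95% interval 23.5 to 34.5) and 56.8% of isolated 5 Gy peaks (95% interval 50.7 to 62.6) had a counterpart within 10 kb. The peaks of this class that were not isolated had one in 82.5% and 91.0% of cases. By overlap the difference in this class was smaller but of the same sign, with 17.8% of isolated and 30.8% of other peaks at 0 Gy, and 39.0% and 50.7% at 5 Gy. At high scores isolated and other peaks were thus alike in having a counterpart in nearly every case. Their shares parted at low scores, more within 10 kb than by overlap.

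**Figure D3:**
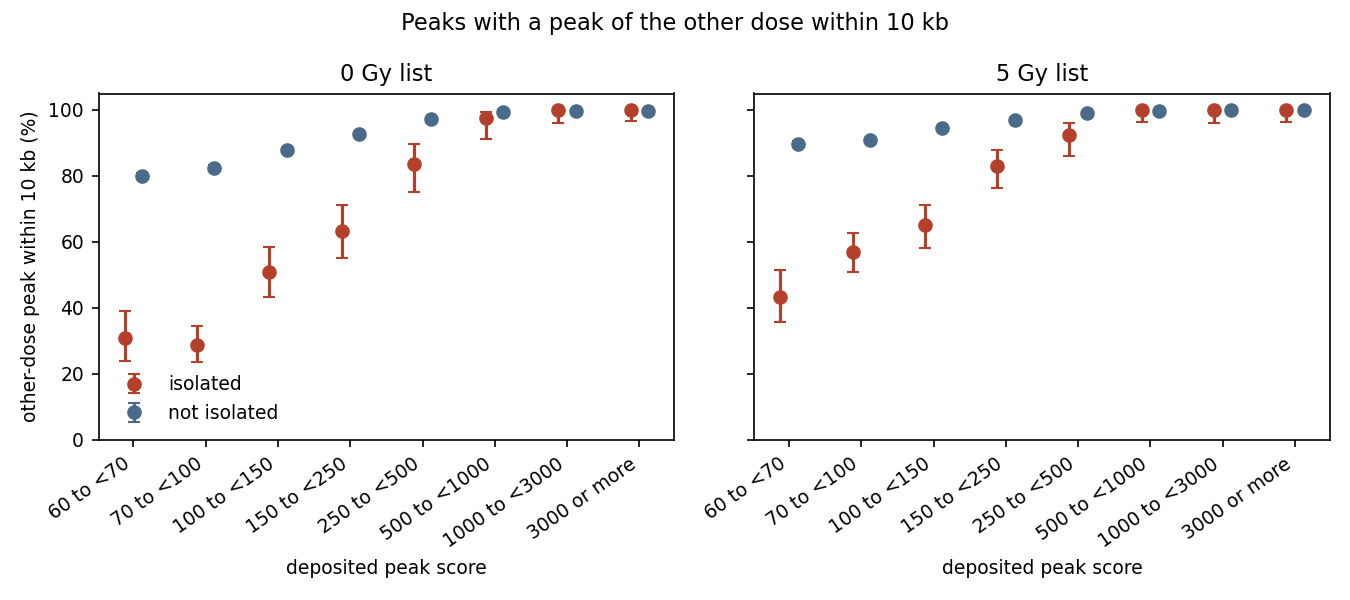
Percentage of peaks with a peak of the other dose within 10 kb (y axis) by class of the deposited score (x axis), for isolated peaks (red) and all others (blue), with Wilson 95% intervals; 0 Gy list on the left, 5 Gy list on the right. Isolated peaks start at 30.9% and 43.4% in the lowest class and the others at 80.0% and 89.8%; at 1000 or more the isolated peaks are at 100% and the others at 99.8% or above.

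The counterparts of isolated peaks fell into distinct kinds. For 447 isolated peaks of each list (41.3% at 0 Gy, 38.4% at 5 Gy), the overlapping peak of the other dose was isolated too. A further 132 isolated 0 Gy peaks (12.2%) and 317 isolated 5 Gy peaks (27.2%) overlapped a peak that had neighbours in its own list. A peak of the other dose lay within 10 kb without overlap in 72 (6.65%) and 102 (8.76%) cases, and from 10 to 100 kb away in 65 (6.01%) and 91 (7.82%). The remaining 366 isolated 0 Gy peaks (33.8%) and 207 isolated 5 Gy peaks (17.8%) had no peak of the other dose within 100 kb. At 0 Gy the median scores of these 5 kinds were 519.5, 258.1, 79.78, 79.69 and 86.94, in the order given. At 5 Gy they were 368.4, 173.4, 80.17, 79.34 and 84.73. Isolated peaks that overlapped a call of the other dose thus had the higher median scores, and the 3 kinds without overlap had medians under 100.

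Where a 5 Gy peak was isolated and its 0 Gy counterpart was not, the 0 Gy peak had its nearest neighbour within 1 kb in 144 of 317 cases and within 10 kb in 203 (45.4% and 64.0%). Over all 0 Gy peaks these shares were 52.7% and 86.0%. The neighbours had a median score of 97.36 and a median length of 359 bp, against 136.6 and 448 bp in the whole 0 Gy list. Of the 317, 239 scored under 150, as did 53.5% of all 0 Gy peaks. In the opposite case, at 132 loci isolated at 0 Gy, the nearest neighbour of the 5 Gy peak had a median score of 95.62 and scored under 150 in 104 cases, where the share over all 5 Gy peaks was 51.5%. Only the nearest neighbour was examined here. The rule leaves an isolated peak alone in its list for at least 100 kb, so few of these neighbours could have another counterpart. Since counterparts were rarer at low scores, low scores of these neighbours follow in part from how they were chosen. Within 100 kb of all 1164 isolated 5 Gy peaks, the 0 Gy list had 2 peaks in 205 cases (17.6%) and 3 or more in 202 (17.4%). Around the isolated 0 Gy peaks, the 5 Gy list, which holds fewer peaks, had 2 in 119 cases (11.0%) and 3 or more in 57 (5.27%). The shares over all peaks were not computed. Several peaks of the other dose lay against 64 of the 317 isolated 5 Gy peaks and 31 of the 132 isolated 0 Gy peaks.

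The 447 pairs isolated at both doses are single stretches called in both lists, from separate libraries, and their ends lay close together. The median distance between starts was 23 bp and between ends 19 bp, and both ends lay within 100 bp in 287 pairs. At least 50% of each peak was covered by the other in 425 pairs (95.1%). The median length was 715 bp in the 0 Gy list and 730 bp in the 5 Gy list, and the 5 Gy peak was the longer in 265 pairs (59.3%, 95% interval 54.7 to 63.7), with a median ratio of 1.01 (95% interval 1.01 to 1.03). Among the 19303 other one-to-one pairs of the lists the 5 Gy peak was the longer in 58.3%, with a median ratio of 1.03. Lengths within pairs were thus nearly the same, while the medians over all isolated peaks were 467 and 576 bp.

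At least 2 times the length of the partner was reached by the 5 Gy peak in 10 of the 447 pairs and by the 0 Gy peak in 6. The extremes, chosen after the values were seen, were a peak on chromosome 1 and a peak on chromosome 9. On chromosome 1, chr1:71871140-71871596 covered 457 bp at 0 Gy (score 95.78) and chr1:71869639-71873250 covered 3612 bp at 5 Gy (score 582.2). On chromosome 9, chr9:98777799-98780681 covered 2883 bp at 0 Gy (score 271.58) and chr9:98779218-98780116 covered 899 bp at 5 Gy (score 121.17).

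Scores of the 447 pairs correlated with a Spearman rho of 0.86 across pairs, which share their libraries and are not replicates, against 0.78 across the other one-to-one pairs. It was 0.72 when both scores had to be under 3000. The score was higher at 0 Gy in 236 of the 447 pairs, higher at 5 Gy in 136 and equal in 75. It was lower at 5 Gy in 52.8% of these pairs and in 59.2% of the others. Neither the meaning of the score nor the depth is stated, so scores of the lists may not be on one scale, and ranks within each list are given beside them. The median shift of a peak's percentile rank from one list to the other was 6.48 points, taken without sign, and 10.1 points in the other pairs. A pair tied at 3100 at both doses shifts by -0.1887 points, and the share of such pairs among the others was not computed. In the top 10% of scores, 114 pairs stood at both doses, 32 at 0 Gy only (21.9% of those there at 0 Gy) and 6 at 5 Gy only (5.00% of those there at 5 Gy). The corresponding shares in the other pairs were 27.0% and 5.45%. The top 10% is taken within each list, so it holds more peaks at 0 Gy, whose list is larger (47930 against 36216 peaks). How far list size accounts for the difference between the doses was not tested.

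**Figure D4:**
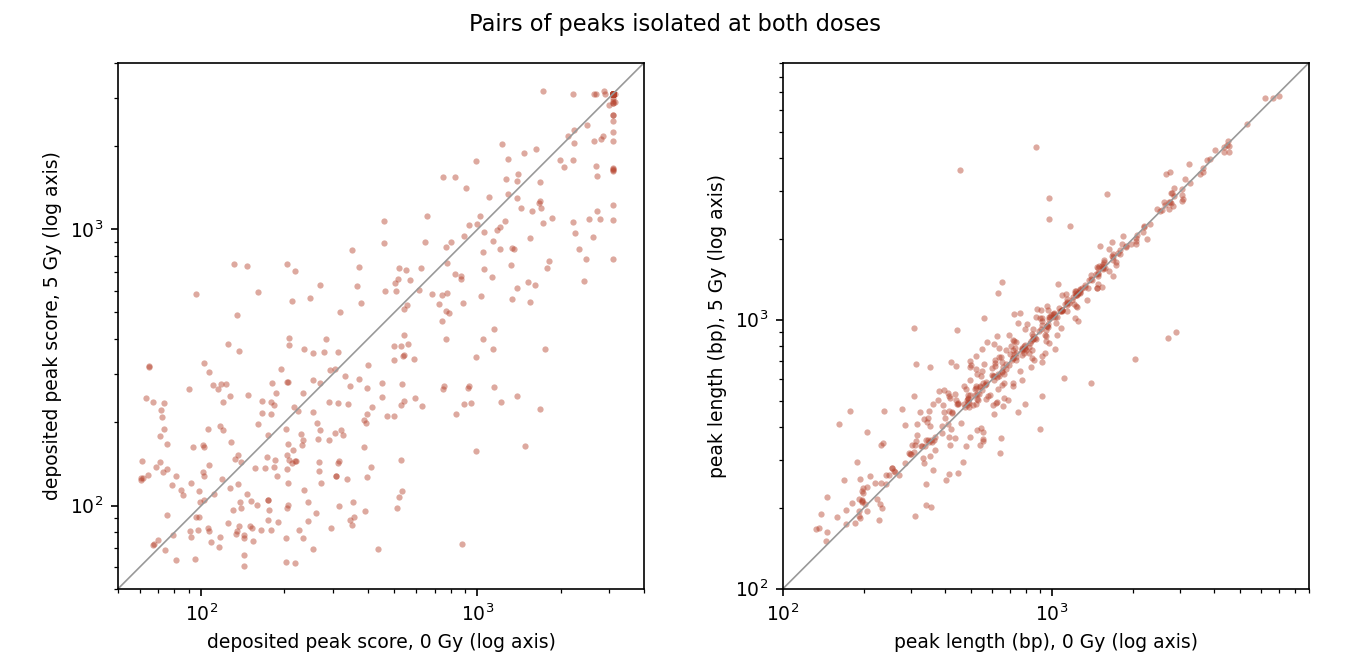
Deposited peak score (left) and peak length in bp (right) of the 447 pairs isolated at both doses, with 0 Gy on the x axis and 5 Gy on the y axis, both on log axes. Each point is a pair and the line marks equal values; lengths lie close to the line (median ratio 1.01), while scores spread widely below 1000 and pile up at 3100.

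A 0 Gy score of 3100 or more was held by 93 of the pairs, and in 76 of these the 5 Gy score was 3100 or more as well. In the 91 pairs tied at 3100 at 0 Gy, the 5 Gy scores went down to 778.72. The score does not order the tied pairs, and those named here were the longest of them. Scores of 3100 at both doses were given to chr1:92974273-92979574 (5302 bp at 0 Gy, 5337 bp at 5 Gy), chr10:53455024-53459582 (4559 and 4214 bp), chrX:62566918-62571261 (4344 and 4194 bp), chr5:137086101-137090127 (4027 and 4272 bp) and chr17:289742-293392 (3651 and 3544 bp). By contrast, chr3:149234933-149238795 scored 3100 at 0 Gy and 1225.15 at 5 Gy over 3863 and 3972 bp.

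Ranks fell most between the doses at chr10:19229423-19229819 (397 bp at 0 Gy), with a score of 876.43 at 0 Gy and 72.51 at 5 Gy, from the 86.55th to the 15.18th percentile. The next was chr2:169312739-169313154 (416 bp), with 436.47 and 69.37. Lower ranks at 5 Gy were also found at chr6:15246285-15246925 (218.28 and 62.16), chr21:20230031-20230814 (203.27 and 62.35) and chr18:49139263-49139486 (253.77 and 69.4). Ranks rose most at chr5:85383423-85383773 (351 bp), with 64.47 at 0 Gy and 317.88 at 5 Gy, from the 5.834th to the 71.7th percentile. Close behind was chr12:40499013-40499864 (852 bp), with 64.58 and 319.16. The others were chr15:80841438-80841745 (63.05 and 245.07), chr1:20832894-20834647 (66.65 and 237.08) and chr21:32432733-32433673 (60.89 and 144.53). Each of these 10 loci was isolated at both doses with a low score at one of them. The rank moved by over 30 points in 62 of the 447 pairs.

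The strongest isolated 0 Gy peak with no 5 Gy peak within 100 kb was chr11:27827987-27828370, with 384 bp and a score of 994.98, or a percentile rank of 87.71 in its list. The nearest 5 Gy peak was 104.8 kb away. It was followed by chr4:141302105-141303720 (1616 bp, score 894.47), with the nearest 5 Gy peak at 141.6 kb. The next 8 scored between 305.09 and 433.21. Among them were chr6:29705430-29706561 (1132 bp, 433.21), chr9:35815320-35816438 (1119 bp, 384.32) and chr20:56063745-56064199 (455 bp, 382.31), the last with the nearest 5 Gy peak 870.3 kb away. On chromosome 13, chr13:94482390-94482815 (426 bp, 371.64) and chr13:110406185-110407511 (1327 bp, 348.13) were the strongest of this kind. The list ends with chr5:33162236-33162932 (697 bp, 342.48), chr9:3218837-3219800 (964 bp, 330.8) and chr1:149114844-149114986, whose 143 bp scored 305.09.

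Isolated 5 Gy peaks with no 0 Gy peak within 100 kb reached lower scores. The highest were 353.49 at chr2:222826392-222828520 (2129 bp, nearest 0 Gy peak 542.7 kb away) and 335.91 at chr5:1347994-1350851 (2858 bp, 110.5 kb). Next came chr11:105623698-105623950 (253 bp, 303.6), chr3:114342435-114343829 (1395 bp, 274.73) and chr8:121823395-121824130 (736 bp, 265.01). The peak chr9:29824728-29826535 (1808 bp, 255.22) was the farthest of the 10 strongest from any 0 Gy peak, at 670.2 kb, followed by chr8:36953025-36953343 (319 bp, 251.97) at 599.7 kb. The other 3 were chr5:105879566-105880077 (245.21), chr4:144832893-144833238 (239.09) and chr6:158093803-158094813 (226.58). Scores of at least 150 were held by 59 of the 366 such peaks at 0 Gy and 28 of the 207 at 5 Gy. Among all peaks of the lists, 46.5% at 0 Gy and 48.5% at 5 Gy scored as high.

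The share of isolated peaks varied between chromosomes, with a similar order in both lists. At 0 Gy it ran from 0.987% on chromosome 17 (26 of 2634 peaks) to 5.20% on chromosome 13 (44 of 846, 95% interval 3.90 to 6.91). At 5 Gy it ran from 1.17% on chromosome 19 (17 of 1456) to 6.99% on chromosome X (83 of 1188, 95% interval 5.67 to 8.58). Chromosomes 2, 4, 6, 8, 13 and X had an interval above the share of the whole list at both doses, and chromosomes 1, 12, 17, 19, 20 and 22 one below it at both doses. Chromosome 2 held the most isolated peaks, with 93 at 0 Gy and 97 at 5 Gy, and X the most pairs isolated at both doses, with 41. Across the 23 chromosomes the shares at the doses correlated with a Spearman rho of 0.94. Chromosomes are fixed in both lists and peaks of a locus recur, so this is a description. Peak spacing differed too, with median gaps at 0 Gy of 5687 bp on chromosome 13, 3012 bp on X and 1864 bp on 17. The shares were not adjusted for it. On X, 54 of 76 isolated 0 Gy peaks and 64 of 83 isolated 5 Gy peaks had a peak of the other dose within 10 kb. On chromosome 13 the counts were 22 of 44 and 28 of 38. Over all isolated peaks the shares were 60.2% and 74.4%, and those over all peaks of X or 13 were not computed.

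**Figure D5:**
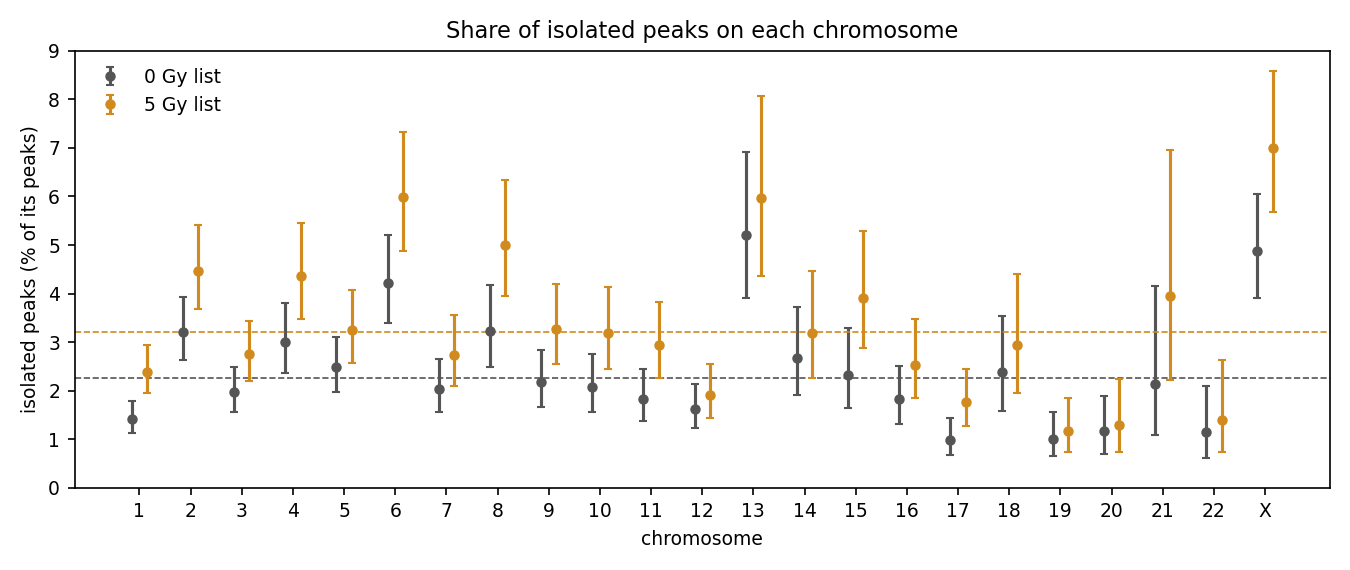
Share of the peaks of each chromosome that were isolated (percent, y axis) by chromosome (x axis) in the 0 Gy list (grey) and the 5 Gy list (orange), with Wilson 95% intervals; dashed lines mark the share of each whole list. Chromosomes 13 and X stand highest at 0 Gy and 6, 13 and X at 5 Gy, while 17, 19, 20 and 22 lie lowest.

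The 127 0 Gy peaks with a gap from 90 to under 100 kb had a median score of 130.1 and a median length of 413 bp, and the 89 with a gap from 100 to under 110 kb had 127.4 and 476 bp. At 5 Gy the 123 just outside had 124.7 and 483 bp, and the 99 just inside 126.0 and 525 bp. A peak of the other dose lay within 10 kb of 57.5% of those just outside and 56.2% of those just inside at 0 Gy, and of 82.1% and 73.7% at 5 Gy. Just inside lay chrX:139115403-139115912 at 0 Gy (510 bp, score 127.84) and chrX:139115426-139115908 at 5 Gy (483 bp, score 169.52), each with a gap of 100.2 kb. Also just inside were chr2:69869960-69870324 at 0 Gy (365 bp, score 70.22) and chr5:37186968-37187331 at 5 Gy (364 bp, score 64.27). Just outside lay chr9:80537053-80537413 at 0 Gy (361 bp, score 1137.71, gap 99.96 kb) and chr6:118782094-118786768 at 5 Gy (4675 bp, score 1297.92, gap 99.97 kb), followed by chr2:26468826-26469170 (345 bp, 65.35) and chr20:36031540-36033700 (2161 bp, 237.4).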

How the data were processed

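The 4 libraries, 1 per group, enter through 2 peak lists. Per the submitters' processing notes, cutadapt 1.9.1 and Bowtie2 2.2.4 were used with the build hg19. Peak names begin with MACS, per the file headers and names, which also carry 1e-06, 10 and 30. The sources used here do not state the caller's version. Each row gives a position and a score, which the authors deposited per peak without normalization between the lists. Starts are printed counted from 1.

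Gaps run from the end of a peak to the start of the next. Shares carry Wilson 95% intervals and medians order-statistic 95% intervals. Named peaks followed a rule: per list, the 10 highest-scoring isolated peaks, the 5 with the largest gap, the 5 longest, the 3 shortest, the 10 strongest with no other dose within 100 kb and 2 on each side of the threshold; and 20 pairs by score or change of rank. Not every one is printed. Members and rules were chosen with earlier results of these data known. Chromosome Y enters totals only. Python 3.11.15, numpy 2.4.6, scipy 1.17.1 and pandas 2.3.3 were used; counting was tested on simulated data. Genes and sequence were not analysed here.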

Additional observations from a re-analysis of the deposited data

How the results depend on the processing

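Of 66 recomputed values 27 stayed within 1.5 times (numbers) or within the 95% interval (other values) and 39 did not. Values are given as 0 Gy and 5 Gy. The number of isolated peaks (1082 and 1164) was 2029 and 2194 with a distance of 50 kb, 530 and 553 with 200 kb and 143 and 173 with 500 kb; with isolation from both lists it was 835 and 687, the setting under which 5 Gy had fewer. The share with the other dose within 10 kb (60.2% and 74.4%) was 70.6% at 0 Gy with 500 kb. At scores of at least 100 it was 77.0% at 5 Gy, and with peaks within 1 kb joined 65.0% and 78.1%. With equal list sizes it was 68.0% and 66.2%, and the 95% intervals of the lists, which describe counting error alone, overlapped. With isolation from both lists it was 56.2% and 69.9%. By the main rule it was 53.5% and 65.6% by overlap, 56.5% and 69.3% within 1 kb and 66.2% and 82.2% within 100 kb. Median length (467 and 576 bp) was 436 bp at 0 Gy with 50 kb, 525 bp at 0 Gy with 500 kb, 643 and 826.5 bp at scores of at least 100, 632 and 771 bp with joining and 574 bp at 0 Gy with equal sizes. Median score (142.1 and 143.2) was 160.9 and 159.9 with 200 kb, 217.7 at 0 Gy with 500 kb, 225.8 and 237.3 at scores of at least 100, 173.1 and 166.0 with joining, 187.8 at 0 Gy with equal sizes and 160.2 and 188.5 with isolation from both lists. The Spearman correlation of scores across pairs was 0.72 with both under 3000. Score minima and equal sizes remove weak peaks by construction; the cause of the other shifts was not tested. No paired analysis was possible because there is 1 library at each dose and antibody. Genes and sequence needed an hg19 reference and were not analysed here. Unknown depth limits every comparison of the lists.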
